A study of Mus musculus with 4 samples.

Results

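The 10 genes described here carry the Indian hedgehog and PTHrP signals of growing cartilage. They were chosen by name, as Ihh, Ptch1, Smo, Gli1, Gli2, Gli3, Hhip, Sufu, Pthlh and Pth1r, out of 18063 protein-coding genes whose symbols occur in both gene annotations used. For each gene, the peaks of open chromatin within 1 kb of the gene start and within the gene body plus 50 kb on each side were taken. These windows held 121 of 76242 peaks listed for Cho replicate 1, 257 of 148330 for Cho replicate 2, 162 of 90971 for WT and 284 of 169591 for the deletion library.

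The measurements come from ATAC-Seq, in which the Tn5 transposase cuts accessible DNA and adds sequencing adapters to it. All 4 libraries were made from mouse primary rib chondrocytes, which the study digested from rib cartilage of newborn mice and used within 2 passages. Cho is a pair of replicates with no genotype in their labels. WT has E160 and E308 intact, and the deletion library comes from cells homozygous for the loss of both elements, E160(delta/delta);E308(delta/delta). E160 and E308 lie upstream of Sox9, a transcription factor of the cartilage lineage, on chromosome 11, where none of the 10 genes lies. The deletions were made by genome editing in embryos, so every tissue of these mice lacks them. WT and the deletion had 1 library each, and no comparison between them could be tested against replicates.

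Ihh is a secreted ligand of prehypertrophic chondrocytes. It binds Ptch1, which then stops holding back the membrane protein Smo, and Smo activity is passed on to the zinc finger factors Gli1, Gli2 and Gli3. Sufu holds Gli proteins in the cytoplasm, and Hhip binds hedgehog ligands at the cell surface. In the growth plate, Ihh maintains the expression of Pthlh, which encodes PTHrP, and PTHrP acts through its receptor Pth1r to delay hypertrophy of the chondrocytes. This loop sets how far from the end of the bone chondrocytes leave the cell cycle. Ptch1, Gli1 and Hhip are also well known targets of hedgehog signalling.

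The labelled cell type was checked against marker promoters. Of 8 chondrocyte markers, 3 had a promoter peak in Cho replicate 1 and 7 in each of the other libraries, and Comp had none in any. Over all genes, 58.6% had such a peak in the first of these lists and 62.1% to 67.8% in the rest. The chondrocyte markers were thus below the share of all genes in Cho replicate 1 and above it elsewhere. Of 5 osteoblast and fibroblast markers, 3 to 5 had one, including Col1a1, Col1a2 and Postn in all 4 libraries. Skeletal muscle markers had 0 to 3 of 5, blood markers 0 to 1 of 3, endothelium markers 2 to 3 of 4 and epithelium markers 0 to 2 of 4. Cho replicate 1 had 3 of 5 osteoblast and fibroblast markers and 3 of 4 endothelium markers. The check therefore did not set chondrocytes apart in that library. All 5 osteoblast and fibroblast markers had a peak in Cho replicate 2, and likewise in the deletion library. The 3 endothelium starts called in both WT and the deletion library were higher in the latter. Their median log2 ratio was 0.86, against 0.01 over all genes called in both. They were Pecam1 (8.31 and 16.5), Kdr (5.88 and 7.69) and Tek (4.41 and 7.99), while Cdh5 had no peak in any library. The 1 muscle start and 1 epithelium start called in both had ratios of 0.39 and 0.31. The medians were 0.03 for chondrocyte and 0.005 for osteoblast and fibroblast markers. The part of other cells in the values below was not tested. The modal background, in reads at a position, was 1.37 for Cho replicate 1, 1.96 for Cho replicate 2, 0.361 for WT and 0.626 for the deletion library. The list of Cho replicate 1 used 1 constant background and the other lists local ones, so a fold enrichment, which is summit reads over background with 1 added to both, is not on the same scale in all lists. Summit reads divided by the modal background of the library are given beside it as the scaled pileup. Its median over all gene starts with a peak was 20.5 for Cho replicate 1 and 65.5 to 80.4 for the other lists. The scaled pileup is thus not on the same scale in all lists either.

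Gene starts were examined first. A peak summit within 1 kb of the gene start was found for 7 of the 10 genes in Cho replicate 1, where 58.6% of all genes had one. The numbers were 9 of 10 for Cho replicate 2 (64.8% of all genes), 7 for WT (62.1%) and 8 for the deletion library (67.8%). The starts of 6 genes, Smo, Gli2, Gli3, Hhip, Sufu and Pthlh, held a peak in all 4 libraries, as did 52.7% of all genes. Pth1r had none in any library, Ihh had one in Cho replicate 2 alone, and Ptch1 and Gli1 each lacked one in 1 library. When any annotated transcript start was allowed, 8 genes, now with Ptch1 and Pth1r, had a peak in all 4 libraries, against 58.8% of all genes.

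**Figure D1:**
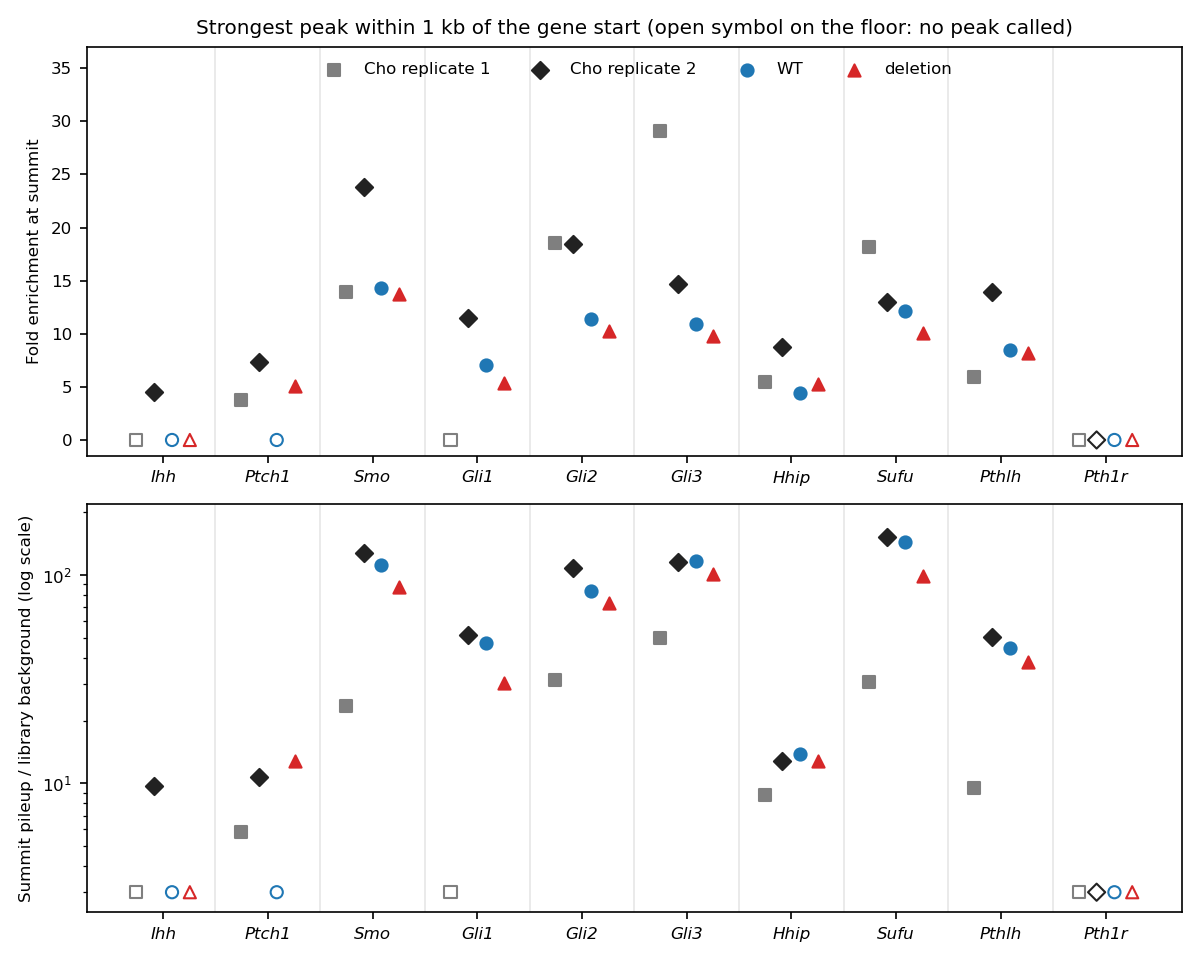
Strongest peak within 1 kb of the start of each gene, by library. The upper axis is the fold enrichment and the lower, on a log scale, the scaled pileup; open symbols at the floor mark libraries with no peak. Sufu, Smo, Gli2 and Gli3 have scaled pileups of 73.5 to 151.3 in the 3 libraries other than Cho replicate 1, whereas Hhip stays between 8.77 and 13.9 in all 4 libraries.

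Smo and Sufu, which stand between receptor and Gli factors, had open starts in every library. Smo (chr6:29685694-29711365, plus strand, NCBIM37) had fold enrichments of 13.9 for Cho replicate 1, 23.8 for Cho replicate 2, 14.4 for WT and 13.7 for the deletion library, with summits 155 to 209 bp upstream of the start. The Cho mean was 18.9 ± 6.97 (SD, n = 2), and the WT value lay within 1 SD of it. The same held at Sufu and Pthlh, whereas WT lay outside 1 SD at Gli2, Gli3 and Hhip. This SD also holds the unequal scale of the Cho lists. Sufu (chr19:46471386-46563294, plus strand) had 18.2, 13.0, 12.2 and 10.1 in the same order, with all 4 summits 5 to 44 bp upstream of the start. Its scaled pileup was 30.7, 151.3, 144 and 99.0. The Sufu start was thus the highest of the 10 for Cho replicate 2 and WT on the scaled pileup, and Smo was the highest in those lists on the fold enrichment.

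Gli2 and Gli3, the Gli factors that receive the signal first, had a start peak in every library. Over all genes with a start peak, the median fold enrichment was 12.2 for Cho replicate 1, 17.6 for Cho replicate 2, 12.7 for WT and 12.4 for the deletion library. Gli2 (chr1:120730709-120950196, minus strand) had fold enrichments of 18.6, 18.4, 11.4 and 10.3, with summits 40 to 73 bp upstream, above those medians in both Cho replicates and below them in the other lists. The Cho mean was 18.5 ± 0.0945 (SD, n = 2) on the fold enrichment and 69.9 ± 54.4 on the scaled pileup. WT and the deletion library were below the first, and with scaled pileups of 83.2 and 73.5 above the second and within 1 SD of it. The SD of 54.4 also holds the unequal scale of the Cho lists. Gli3 (chr13:15555068-15821859, plus strand) had 29.1, 14.7, 10.9 and 9.75, with all summits 5 to 28 bp upstream. On the fold enrichment it was above the median of all starts in Cho replicate 1 alone. On the scaled pileup the medians of all starts were 20.5, 66.9, 80.4 and 65.5 in the same order. There Gli3 had 49.7, 115.0, 116.5 and 100.6, and Gli2 had 31.4, 108.3, 83.2 and 73.5. Both starts were thus above the scaled median in every library. The Gli3 peak was the broadest at any of these starts, with 2053 bp in Cho replicate 1, 1725 bp in Cho replicate 2, 823 bp in WT and 1094 bp in the deletion library.

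Gli1 is the Gli gene that is itself switched on by the pathway. At Gli1 (chr10:126766945-126778645, minus strand) Cho replicate 1 had no peak within 1 kb, and the other libraries had fold enrichments of 11.5, 7.10 and 5.36, all with summits 839 to 863 bp upstream of the start. The strongest WT peak inside the gene was in an intron, 2.53 kb from the start (chr10:126775984-126776193), where the fold enrichments were 8.87 for Cho replicate 1, 21.3 for Cho replicate 2, 11.2 for WT and 10.8 for the deletion library. The intronic site was higher than the upstream site in each of the 3 lists that held both.

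Hhip and Ptch1, the proteins that bind ligand and damp the signal, had weak starts. Hhip (chr8:82490014-82581905, minus strand) had fold enrichments of 5.49, 8.79, 4.41 and 5.28, which rest on 12, 25, 5 and 8 reads at the summit. The WT list held 2 separate intervals of equal height, 25 and 470 bp inside the gene. Ptch1 (chr13:63610261-63674474, minus strand) had 3.80 for Cho replicate 1, 7.33 for Cho replicate 2 and 5.04 for the deletion library, with summits 278 to 366 bp upstream, and no peak in WT. The numbers of reads at those summits were 8, 21 and 8. Whether the missing WT peak goes beyond counting error was not tested.

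Ptch1 was open further inside. Near an internal transcript start, 6.80 kb into the gene, all 4 libraries had a peak, with fold enrichments of 8.87, 7.55, 7.47 and 5.51. At 5.18 kb (chr13:63669211-63669532), in an intron and more than 1 kb from any annotated start, the values were 13.5, 15.2, 8.47 and 8.12. The Cho mean there was 14.4 ± 1.20 (SD, n = 2), and the log2 ratio of the deletion library over WT was -0.06.

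In the PTHrP arm, ligand and receptor differed. Pthlh (chr6:147200623-147212689, minus strand) had a start peak in all 4 libraries, with fold enrichments of 5.91, 13.9, 8.51 and 8.21. Summits lay within 82 bp of the start in all 4 libraries. Pth1r (chr9:110624592-110649649, minus strand) had no summit within 1 kb of its start. The nearest summits lay 1465 to 1554 bp upstream in all 4 libraries, with fold enrichments of 7.60 for Cho replicate 1, 19.3 for Cho replicate 2, 7.74 for WT and 14.4 for the deletion library. At an internal transcript start, 4.60 to 4.89 kb into the gene by summit (4602 to 4886 bp), the values were 5.91, 8.44, 7.94 and 9.12.

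Ihh (chr1:74991891-74998246, minus strand) had a start peak in 1 library, fewer than any member but Pth1r. The only peak within 1 kb was that of Cho replicate 2, 103 bp upstream, with a fold enrichment of 4.52 from 19 reads. The nearest summits were 1271 bp inside the gene in WT and 1375 bp in the deletion library, with 4.72 and 6.18. In Cho replicate 1 no peak lay anywhere in the gene or 50 kb around it, and the nearest summit was 58542 bp away. Such empty windows occurred for 12.2% of all genes in that list. In bulk cells, fewer cells with an open Ihh gene and less opening per cell cannot be told apart.

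The base composition of the starts was read from the NCBIM37 sequence, 300 bases centred on each gene start. The members had a median GC content of 69.8% against 59.3% for all genes, and a median of 26 CpG dinucleotides against 16. Over all genes, the median was 3 CpG for starts with a peak in no library and 26 for starts with a peak in all 4. Pth1r, without a start peak, had 4 CpG and the lowest GC content of the members, 56.3%. Ihh had 32 CpG, as many as Gli2, and Gli3 had 41. Across genes this order is a description only.

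The windows of gene body plus 50 kb were examined next. Gli3 had 36 peaks in Cho replicate 1, 49 for Cho replicate 2, 28 for WT and 52 for the deletion library. Gli2 had 23, 52, 27 and 53, and Sufu had 17, 46, 31 and 51. Hhip had 6, 5, 4 and 7, Pthlh 5, 5, 6 and 10, and Ihh 0, 11, 5 and 10. Per 100 kb in WT, Sufu had 16.2 peaks, Gli1 16.1 and Pth1r 15.2, a density that 94.7% or more of all genes did not exceed, whereas Hhip had 2.08 and Ihh 4.70. The median was 8.04 over the members and 5.85 over all genes. The gene windows differ in how many other genes they hold, and of 162 WT peaks 125 lay more than 1 kb from every annotated start. Of the 162 summits, 92 were intronic and 49 intergenic.

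**Figure D2:**
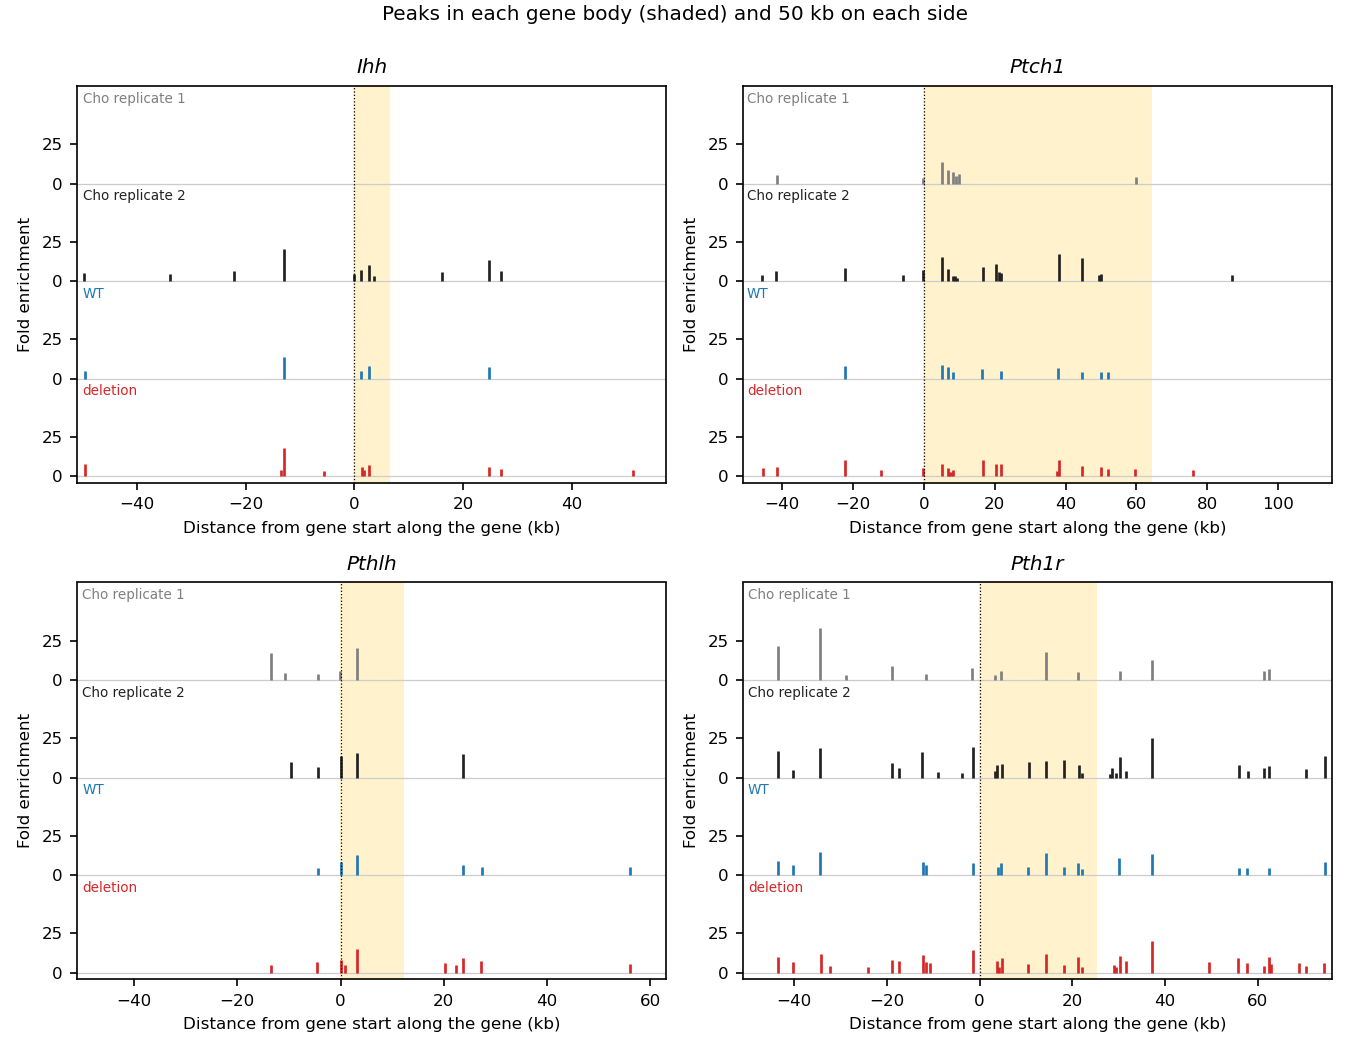
Peaks around the ligand genes Ihh and Pthlh and the receptor genes Ptch1 and Pth1r in each library. The horizontal axis is the distance from the gene start in kb, the shaded part is the gene, and each line is 1 peak drawn to its fold enrichment. The Ihh panel is empty in Cho replicate 1, and the upstream Ihh peak is the tallest in the other 3 libraries (20.6, 13.5 and 17.9).

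The strongest distal site of each gene, by fold enrichment in WT, was then described. Upstream of Ihh, 13.0 kb before the start and between genes, a peak (chr1:75011152-75011332) had fold enrichments of 20.6 for Cho replicate 2, 13.5 for WT and 17.9 for the deletion library, and none in Cho replicate 1. The scaled pileup was 66.4, 49.9 and 52.7. The deletion over WT ratio of the scaled pileup was 1.06 (95% interval 0.577 to 1.99, counting error only). This site was higher than any peak inside the Ihh gene in each of these lists. A further site, 24.8 kb downstream of the start in an intron of the neighbour Ccdc108, had 13.5, 7.35 and 6.15 in the same 3 libraries. Both are printed from the plus strand of NCBIM37, centred on the WT summit, the first as the strongest distal Ihh site and the second for its SOX motif. Capitals mark a match to a motif, on either strand.
Ihh, 13.0 kb upstream (chr1:75011179-75011279): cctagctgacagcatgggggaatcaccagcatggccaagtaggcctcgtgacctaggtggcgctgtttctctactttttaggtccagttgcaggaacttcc
Ihh, 24.8 kb downstream (chr1:74973434-74973534), ACAATGG of SOX factors in capitals: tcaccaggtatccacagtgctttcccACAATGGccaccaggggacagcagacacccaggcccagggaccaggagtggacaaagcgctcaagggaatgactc

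Pthlh held its strongest distal site in its own intron, 3.23 kb from the start. The fold enrichments were 20.7 for Cho replicate 1, 15.9 for Cho replicate 2, 13.1 for WT and 15.4 for the deletion library, each above that of the Pthlh start in the same library. The Cho mean was 18.3 ± 3.37 (SD, n = 2). Pth1r had its strongest distal site 34.4 kb upstream, between genes, with 33.4, 18.6, 14.7 and 11.8. This was the highest peak of any member window in Cho replicate 1. A second Pth1r site lay 37.2 kb downstream of the start, in a coding exon of the neighbour Ccdc12, with 12.7, 25.1, 13.5 and 20.03, so the order of the sites in Cho replicate 2 and the deletion library was the opposite of that in WT and Cho replicate 1. The 2 strongest distal sites of the PTHrP arm are shown to compare their composition. The Pthlh window had no CpG and a GC content of 51.5%, whereas the Pth1r window had 11 CpG and 71.3%.
Pthlh, intron (chr6:147209406-147209506), TGANTCA of AP-1 factors in capitals: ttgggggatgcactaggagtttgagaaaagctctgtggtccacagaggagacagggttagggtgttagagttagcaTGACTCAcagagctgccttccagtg
Pth1r, 34.4 kb upstream (chr9:110683966-110684066): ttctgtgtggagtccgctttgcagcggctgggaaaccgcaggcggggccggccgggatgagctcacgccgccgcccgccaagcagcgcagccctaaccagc

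Gli2 and Gli3 had rows of open sites along their introns. In Gli2, an intronic site 59.7 kb from the start had fold enrichments of 18.6 for Cho replicate 1, 29.5 for Cho replicate 2, 18.5 for WT and 22.2 for the deletion library, and was stronger in WT than the Gli2 start. The strongest distal site of Gli3 lay 279 kb from its start, between genes and beyond its end, with 25.3, 31.7, 15.4 and 17.2. An intronic Gli3 site at 35.2 kb had 15.2, 18.1, 15.3 and 16.01. The log2 ratio of the deletion library over WT was 0.07 at that site. All 3 sites were called in all 4 libraries. The first and second are shown as the strongest distal sites of their genes, and the intronic Gli3 site because it alone of the 125 distal WT sites held both the SOX and the RUNX motif.
Gli2, intron at 59.7 kb (chr1:120890465-120890565), TGANTCA in capitals: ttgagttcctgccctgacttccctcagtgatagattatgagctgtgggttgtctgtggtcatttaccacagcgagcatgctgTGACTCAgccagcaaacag
Gli3, intron at 35.2 kb (chr13:15590187-15590427), ACAATGG and TGTGGTT of RUNX factors, on either strand, in capitals: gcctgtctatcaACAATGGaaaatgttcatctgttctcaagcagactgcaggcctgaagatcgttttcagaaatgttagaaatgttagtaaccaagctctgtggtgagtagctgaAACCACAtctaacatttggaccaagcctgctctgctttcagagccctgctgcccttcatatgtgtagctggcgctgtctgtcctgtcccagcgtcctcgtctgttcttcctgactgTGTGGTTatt
Gli3, 279 kb (chr13:15833804-15833904): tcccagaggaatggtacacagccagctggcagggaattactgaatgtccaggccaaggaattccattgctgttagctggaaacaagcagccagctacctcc

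**Figure D3:**
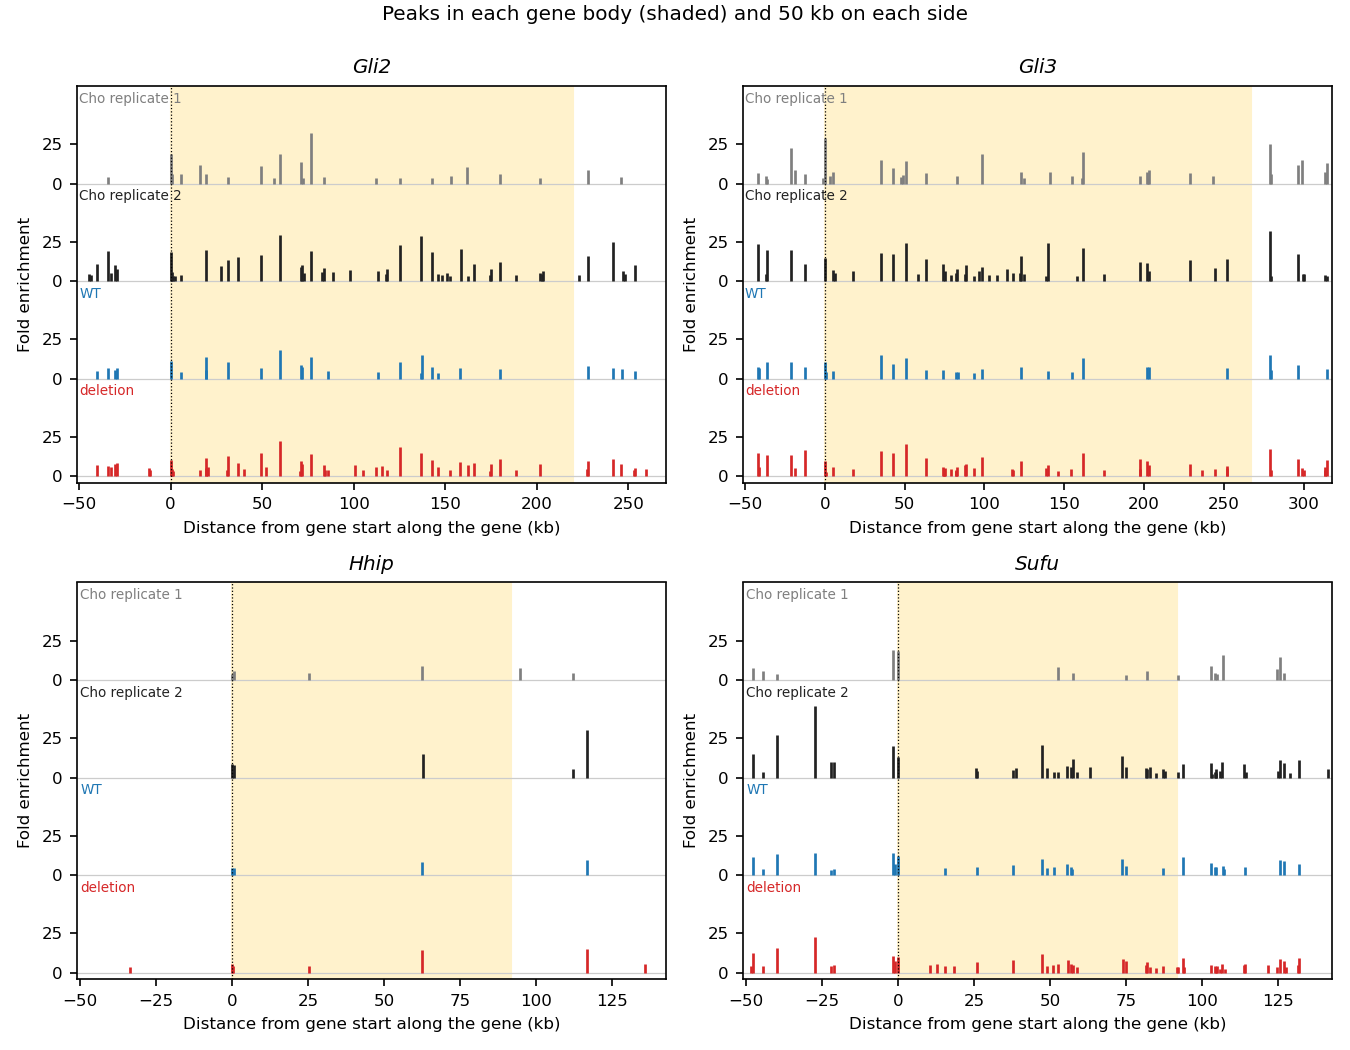
Peaks around the Gli factors Gli2 and Gli3 and the inhibitors Hhip and Sufu in each library, with the distance from the gene start in kb and the fold enrichment of each peak; the shaded part is the gene. Gli2 and Gli3 have 27 and 28 peaks in WT, whereas Hhip has 4, and the tallest line of all is the Sufu neighbour site in Cho replicate 2 (45.3).

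The inhibitor genes differed from each other. Hhip had 2 distal WT peaks. That between genes, 117 kb from the start and past the gene end, had fold enrichments of 30.2 for Cho replicate 2, 9.69 for WT and 15.0 for the deletion library and no peak in Cho replicate 1. The intronic one at 62.6 kb had 8.87, 15.2, 8.68 and 14.5. Both were above the Hhip start in every list that held them. For Sufu, the strongest site was 27.5 kb upstream, in an intron of the neighbour Tmem180 (chr19:46443765-46443995), with 45.3 for Cho replicate 2, 14.3 for WT and 22.7 for the deletion library. Cho replicate 1 had none there. The Hhip site is shown for its RUNX motif.
Hhip, 117 kb (chr8:82465071-82465171), TGTGGTT in capitals: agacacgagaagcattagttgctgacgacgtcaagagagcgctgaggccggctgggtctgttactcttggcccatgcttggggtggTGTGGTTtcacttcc

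The strongest distal WT site of Smo lay in a repeat. At 12.5 kb, in an intron, WT had a fold enrichment of 8.94 and the deletion library 7.56, with summits 286 bp apart. Neither Cho replicate had a summit within 150 bp of that in WT, but a Cho replicate 2 summit of 3.99 lay within 150 bp of that in the deletion library. The WT interval of 686 bp held the unit TGTGC 100 times, which makes up 72.9% of its bases, and the stretch printed held it 17 times. How reads of such a repeat were placed was not tested. A distal Smo site 16.7 kb upstream, with 8.92 for Cho replicate 2, 7.28 for WT and 9.16 for the deletion library, was the only distal WT site of the 10 genes with the GLI motif. The motif centre lay 63 bases from the summit, on the minus strand.
Smo, repeat at 12.5 kb (chr6:29698101-29698201): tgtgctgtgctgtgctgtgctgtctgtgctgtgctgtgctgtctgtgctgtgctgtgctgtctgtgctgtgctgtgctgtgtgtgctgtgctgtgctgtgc
Smo, 16.7 kb upstream (chr6:29668939-29669089), the reverse complement of GACCACCCA in capitals: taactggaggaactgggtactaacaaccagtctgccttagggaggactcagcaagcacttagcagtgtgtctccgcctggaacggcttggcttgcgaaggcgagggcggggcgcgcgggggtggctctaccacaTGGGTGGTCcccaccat

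Motifs were counted in 300 bases centred on the summits of the 125 distal WT peaks, on both strands. GACCACCCA, the GLI motif, was in 1 window (0.8%, 95% exact binomial interval 0.0203% to 4.38%), and in 0.181% of all 67843 distal WT peaks. ACAATGG, the SOX motif, was in 5 (4%, 1.31% to 9.09%), against 2.89% of all. TGTGGTT, the RUNX motif, was in 9 (7.2%, 3.35% to 13.2%), against 12.3%. TGANTCA, the AP-1 motif, was in 25 (20%, 13.4% to 28.1%), against 27.1%. All 4 intervals for WT include the share over all distal peaks. Of the 229 distal deletion peaks, 2 held the GLI motif (0.873%, 0.106% to 3.12%), against 0.187% of all 138288, and 5 the SOX motif (2.18%, 0.713% to 5.02%), against 2.97%. The RUNX motif was in 18 (7.86%, 4.72% to 12.14%), against 12.2%, an interval that ends just below the share of all, and the AP-1 motif in 57 (24.9%, 19.4% to 31.01%), against 29.4%. A motif match is a description of letters and not of a bound factor.

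WT and the deletion library were then compared at the gene starts. Both had a start peak for 7 members, and the log2 ratio of fold enrichment, deletion over WT, was below 0 for 6 of them and above 0 for Hhip. The ratio was -0.40 at Gli1, -0.27 at Sufu, -0.16 at Gli3, -0.15 at Gli2, -0.07 at Smo, -0.05 at Pthlh and 0.26 at Hhip, and at Hhip the 2 intervals did not overlap. The median was -0.15, against 0.01 over 11168 genes, of which 47.6% were below 0. No member passed a log2 ratio of 1 in either direction. Of all genes, 1.07% passed it upwards and 0.0716% downwards. On the scaled pileup the median was -0.21 for the members and -0.26 for all genes. The 95% counting intervals of the scaled ratio included 1 at all 7 starts, although the median of all genes lay below 1. At Sufu the scaled ratio was 0.686 (0.467 to 1.01), at Smo 0.792 (0.517 to 1.22) and at Gli1 0.643 (0.317 to 1.32). For the 6 members that could be compared, the difference between the Cho replicates was larger than that between WT and the deletion library in 5, all but Gli2, and its median over the 7 members with 2 Cho values was 0.77, against 0.72 over 9777 genes. This difference also holds the unequal scale of the Cho lists.

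The number of window peaks in the deletion library was 1.75 times that in WT, and over the whole lists the ratio was 1.86. With equal numbers of the strongest peaks from each list the ratio was 0.931, where the whole lists are equal in number by construction. Of the 162 WT peaks, 158 (97.5%, 95% exact binomial interval 93.8% to 99.3%) overlapped a deletion peak by 1 bp or more, against 95.9% of all WT peaks. Of the 284 deletion peaks, 152 (53.5%, 47.5% to 59.4%) overlapped a WT peak, against 49.4% of all. The shares of the members thus lay close to those of the whole lists. The modal background, which follows depth, was 0.361 reads in WT and 0.626 for the deletion library, and its part in these numbers was not tested beyond the lists of equal size. Every WT peak around Ihh, Ptch1, Smo, Gli1, Hhip, Sufu, Pthlh and Pth1r overlapped a deletion peak, and the 4 that did not were at Gli2, with 3, and Gli3, with 1.

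**Figure D4:**
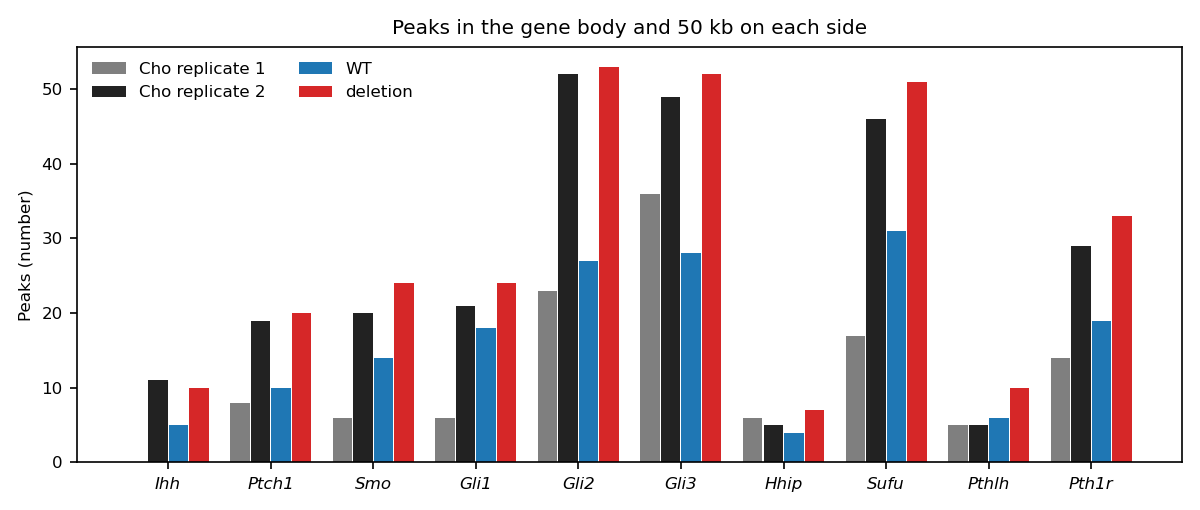
Number of peaks in each gene body plus 50 kb on each side, by library. Bars start at 0. The deletion library has more peaks than WT at all 10 genes, with Gli2 (53 against 27) and Gli3 (52 against 28) holding the most in the deletion library and Sufu (31) in WT.

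The WT peaks without a deletion peak were weak. The 3 of highest fold enrichment were a site past the end of Gli2 (5.88), an intronic site of Gli3 at 155 kb (4.41) and an intronic site of Gli2 at 5.51 kb (4.18), with 7, 5 and 8 reads at the summit. The last was in a GC-rich stretch with the SOX motif and had a peak of 5.91 for Cho replicate 1. The 3 strongest deletion peaks without a WT peak were higher. A site 49.5 kb upstream of Smo (chr6:29636083-29636238) had 15.99 for the deletion library, 17.2 for Cho replicate 2 and 3.38 for Cho replicate 1. An intronic Gli3 site at 197 kb had 11.2, 11.9 and 5.07 in the same order. An intronic Gli2 site at 36.6 kb had 8.68 for the deletion library and 15.4 for Cho replicate 2. All 3 were thus called in at least 1 Cho replicate. Of all 132 window peaks of the deletion library without a WT peak, 63 had a Cho summit within 150 bp. The number was 134 for the 152 deletion peaks with a WT peak. The median reads at the summit were 10.5 without and 23 with a WT peak. The same shares over all deletion peaks were not computed, so these numbers are not particular to the 10 genes.

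Peak heights were compared at sites shared by WT and the deletion library. Over the 158 WT peaks with a deletion peak, the median log2 ratio of fold enrichment was 0.18, against 0.28 over 87274 such peaks. On the scaled pileup the medians were -0.03 and -0.01. By gene, the median fold enrichment ratio ran from -0.00 at Sufu, over 0.03 at Smo, 0.10 at Gli1 and 0.14 at Pth1r, to 0.43 at Ptch1 and 0.44 at Hhip. Of the 158 peaks 10 passed a log2 ratio of 1 upwards, where 7.79% of all shared peaks did, and 0 passed downwards, where 0.071% did.

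**Figure D5:**
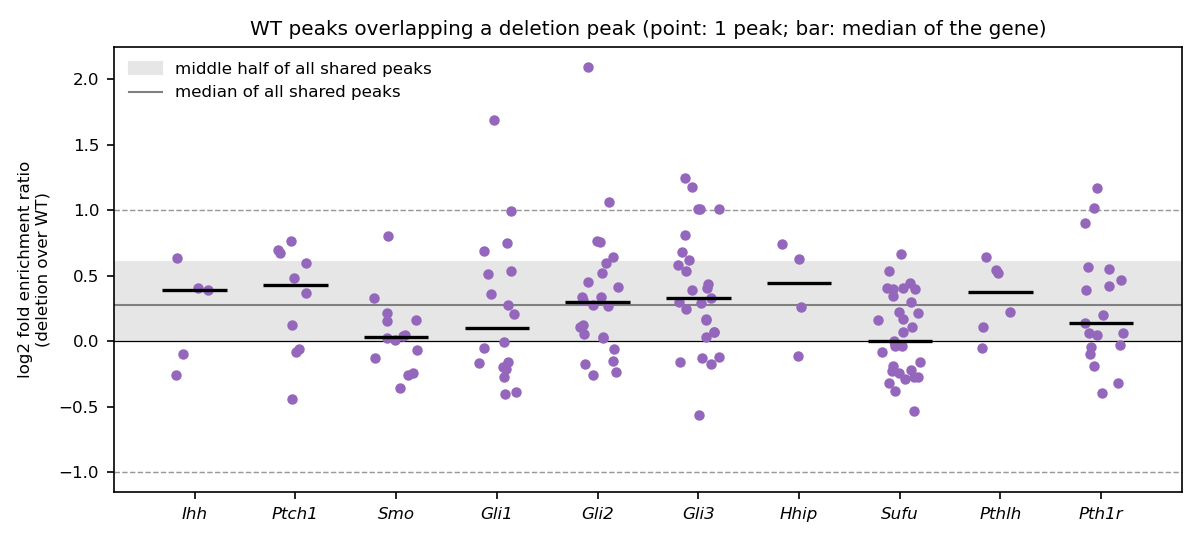
Log2 ratio of fold enrichment, deletion over WT, at the WT peaks of each gene window that overlap a deletion peak. Points are peaks, bars the gene medians, the grey line the median of all shared peaks (0.28), the grey band their range between the quartiles, and dashed lines a log2 ratio of 1 in either direction. Gene medians lie between -0.00 and 0.44, and no point lies below the lower dashed line.

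The 3 highest ratios came from pairs with different summits. They were 2.09 at an intronic Gli2 site at 137 kb, 1.69 at a site 38.7 kb upstream of Gli1, at the start of the neighbour R3hdm2, and 1.25 at the Gli3 start, where the WT peak lay 624 bp inside the gene. In each, the deletion interval also covered a second, taller WT peak, and the summits were 344, 295 and 652 bp apart. Among the 144 pairs with summits within 150 bp, a limit set after the values were seen, the highest ratio was 1.18, at a site 12.0 kb upstream of Gli3, and 7 passed 1, as did 5.97% of all 80528 such pairs. That site had 9 reads at its summit in WT and 26 for the deletion library, and the interval of its scaled ratio, 0.755 to 4.03, included 1. The 3 lowest ratios were -0.56 at a site 280 kb from the Gli3 start, -0.54 at a site past the end of Sufu and -0.44 at the internal Ptch1 start. All 3 were called in all 4 libraries. The scaled ratios were 0.576 (0.226 to 1.46), 0.651 (0.429 to 0.990) and 0.621 (0.390 to 0.992). These sites were picked for their low ratios, and the intervals do not allow for that choice. At transcript starts such as that of Ptch1, the median log2 scaled ratio over all genes was -0.26, so 1 is not the typical value there.

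Gli3, which has the longest window, had the most WT peaks that recurred in every library. Of its 28 WT peaks, 17 overlapped a deletion peak and had a summit of both Cho replicates within 150 bp, as had 12 of 27 at Gli2, 12 of 31 at Sufu, 7 of 19 at Pth1r and 3 of 4 at Hhip. The numbers were 4 of 18 at Gli1, 2 of 14 at Smo, 3 of 10 at Ptch1, 3 of 6 at Pthlh and 0 of 5 at Ihh. By share, Hhip (75%) was above Gli3 (60.7%). Of the WT peaks of all members, 38.9% recurred in this way, and 79.0% had a Cho replicate 2 summit within 150 bp. The shares over all WT peaks under these rules were not computed. Over all members, 43.2% of the WT peaks had a Cho replicate 1 summit within 150 bp, against 46.0% of all WT peaks, and 32.04% of the deletion peaks did, against 34.2% of all.

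Other genes of both pathways were read at their starts, from lists of known components. Of 16 hedgehog genes, 11 had a start peak in all 4 libraries, where 52.7% of all genes did. These 11 included the ligand coreceptors Boc, Cdon and Gas1, and Kif7, Evc, Evc2 and Ift88 of the cilium. In the same list, Kif3a and Csnk1a1 had no start peak in Cho replicate 2, and Gpr161 had none in Cho replicate 1. In WT, Cdon had a fold enrichment of 11.7, Gas1 9.18 and Boc 7.09. The other ligand genes had almost none. Shh had a peak in the deletion library alone, of 4.92, and Dhh in Cho replicate 2 alone, of 2.91. Of 12 genes of PTH and PTHrP signalling, 8 had a peak in all 4 libraries, including Prkaca, the catalytic subunit of protein kinase A (19.1 for WT), Creb1 (15.2), Gnas, the stimulatory G protein (11.6), and Nkx3-2, a repressor of chondrocyte hypertrophy (6.405). Pth, the gene of the circulating hormone, Prkar1a, a regulatory subunit of protein kinase A, and the transcription factor gene Mef2c had none in any library. When any transcript start was allowed, Prkar1a and Mef2c had one in all 4. The median log2 ratio, deletion over WT, was 0.05 over 14 hedgehog genes and -0.11 over 9 PTH and PTHrP genes, against 0.01 over all genes, and none passed 1 in either direction.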

How the data were processed

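ATAC-Seq peak lists of 4 libraries were analysed (Cho, 2 replicates; WT and the E160/E308 deletion, 1 each), grouped by the sample labels. Per the labels' processing notes, the authors used fastp, Bowtie2 2.4.4, SAMtools 1.9 and MACS2 2.2.4 on mm9 (NCBIM37), with Picard, whose version differs between the notes and the methods. The methods give a q-value of 0.05. Every list holds 1 library. The deposited values are the fold enrichment, a ratio with 1 added to summit and background, the −log10 p-value, the −log10 q-value and a score of 10 times the −log10 q-value.

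Each interval was kept once, at its highest fold enrichment. Cho replicate 2 was read on GRCm38, which its positions follow, whereas mm9 is the build in the methods. Coordinates were not converted between builds. Its summits were set beside the others by distance from bases placed in both builds by exact matches of 63 RefSeq promoter sequences of 300 bases, and taken as the same site within 150 bp. Genes were those of GENCODE (NCBIM37) and RefSeq (GRCm38). The reads at each summit were worked out from its fold enrichment together with its p-value, with Poisson tails, for at least 99.9974% of intervals, and tested on simulated data. Depth in reads is not in the lists. Intervals are exact binomial at 95% and cover counting error only. No test was possible with 1 library per genotype.

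The members and lists were chosen with earlier results of these data known. Named sites were the strongest start peak of each member, the strongest distal WT peak of each, the 3 strongest peaks found in WT or the deletion library alone, and the 3 highest and lowest ratios. The other sites named, at Ihh, Smo, Gli3, Hhip, Pthlh and Pth1r, were chosen after their values were seen. Disp1, Hdac4, Pde4d, Runx2 and Spi1 were not analysed here. Alternatives covered windows, starts, q-values, equal peak numbers, overlap, measures and motif windows. Python 3.11.15, numpy 2.4.6, pandas 2.3.3, scipy 1.17.1 and matplotlib 3.10.9 were used.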

Additional observations from a re-analysis of the deposited data

How the results depend on the processing

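Of 68 recomputed summary values, 59 kept their direction and stayed within their limits. For counts of genes with a start peak, the limit was a fold change in either direction. These counts were too near the number of genes listed to pass it upwards, so their stability was partly fixed in advance. With equal numbers of the strongest peaks in each list, 5 members had a start peak in the deletion library, the ratio of peak numbers in the windows was 0.931, and the overlapping shares were 77.1% of WT and 80.3% of deletion peaks. This alternative uses fewer peaks by construction and makes the whole lists equal in number, which is the reference for the ratio of 0.931. With an overlap of at least 50% of the peak, the share of deletion peaks was 43.3%. The shares over all genes and all peaks at these settings were not computed, so the member counts and shares have none beside them. The median Cho value of 15.6 became 69.9 on the scaled pileup, which is another unit, and was 13.91 without Cho replicate 1 and 13.94 without Cho replicate 2. The median log2 ratio at starts reversed to 0.37 on the −log10 q-value, where all genes had 0.42. At shared window peaks it reversed to -0.035 on the scaled pileup and became 0.68 on the −log10 q-value, where all peaks had -0.01 and 0.76. The Hhip ratio reversed to -0.12 on the scaled pileup. The cause of these changes in measure was not tested. Without Gli2 and Gli3, a choice made after seeing the data, the ratio of peak numbers was 1.67. No paired analysis was possible because each genotype had 1 library. At the Hhip, Ptch1 and Ihh starts the summits hold 5 to 25 reads. Whether the peaks missing at the Ptch1 and Ihh starts go beyond counting error was not tested.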

Other observations

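Neighbours shared the windows of some members. The highest WT peak in any window, with a fold enrichment of 21.6, lay 41.5 kb upstream of Smo and within 1 kb of an annotated start, and had 12.2 for Cho replicate 1, 38.7 for Cho replicate 2 and 24.2 for the deletion library. In the Gli1 window the start of Mars held the highest WT peak, 17.3, above the 11.2 of the Gli1 intron. Only genes found in both annotations were counted as neighbours, and Mars was not among them. Of 12 other starts of such genes in the 10 windows, 6 had a peak in all 4 libraries, as did 52.7% of all genes. None of the windows of Ihh, Gli2, Gli3, Hhip and Pthlh held another start of such a gene. A peak 13.4 kb upstream of Pthlh reached a fold enrichment of 16.9 for Cho replicate 1 and 4.92 for the deletion library, with no call for WT or Cho replicate 2.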
